A study of Rattus norvegicus with 26 samples.

Results

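RNA polymerase I is the enzyme of the nucleolus that transcribes the precursor of the large ribosomal RNAs, and its activity is a main control point of ribosome production. Its core is built from a pair of large catalytic subunits, an assembly platform shared with RNA polymerase III, a stalk that contacts the initiation factor Rrn3, and a set of small subunits, some of which are shared by all nuclear RNA polymerases. In people, variants in the genes of the second largest subunit and of both platform subunits cause Treacher Collins syndrome, a disorder of craniofacial development. The 6 genes described here are Polr1a to Polr1f, chosen as the probe sets whose only gene symbol is one of these names, and they are 6 of 14506 genes with a probe set of a single symbol. Each had 1 probe set, so no second probe set was available to check it. The set was picked because Polr1b and Polr1f had stood out between diets in these same arrays. The diet differences of all 6 genes are therefore given as descriptions, with no p-value, and where genes past a threshold are counted, the place of these genes in the count restates how they were chosen.

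The animals were male Fisher 344 rats, an inbred strain, aged 18 months. For 5 to 6 months they had eaten a purified AIN-93G diet with 100 (low, n = 8), 1000 (control, n = 9) or 10000 (high, n = 9) IU of cholecalciferol, vitamin D3, per kg. Hippocampal RNA of each of these 26 rats was hybridised to an Affymetrix Rat Gene 1.0 ST array of its own, and values are log2 intensities. The rats lived in pairs told apart by a tail mark. The number in each array description was read as the cage, which the labels do not state outright. On this reading there were 14 cages, and both rats were measured in 12 cages. All statements on cages and cage mates below rest on it. No genetic change is named for any group, and every diet held some of the vitamin, so no group went without it. RNA of 1 further low-diet rat failed quality control.

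The arrays agreed closely, with a mean correlation of each array with the others between 0.993 and 0.997. All 12 listed markers of hippocampal neurons were at or above the intensity filter of 6.94, the median of all probe sets. Of 10 listed choroid plexus markers 9 were measured, and 2 of them, Ttr and Enpp2, passed this filter. These 2 varied widely among rats. Their mean per rat lay between 9.53 and 10.90 on low, 9.04 and 12.44 on control and 9.13 and 11.40 on high. Of the 6 subunit genes, 5 passed this filter, and Polr1a, with a mean of 6.78, did not. Polr1a was measured in every rat but stayed out of the tests over 8485 genes, and its SE comes from a fit over all 14506 genes. In whole tissue, fewer cells of a type and less RNA per cell cannot be told apart.

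The promoters of Polr1b and Polr1f are shown because these genes had the highest means on the high diet, and that of Polr1c because its mean hardly moved. The sequences are the 250 bases before the gene's start in RefSeq on build GRCr8, 5′ to 3′ on the strand of the gene, and capitals mark the motifs found.
Polr1b: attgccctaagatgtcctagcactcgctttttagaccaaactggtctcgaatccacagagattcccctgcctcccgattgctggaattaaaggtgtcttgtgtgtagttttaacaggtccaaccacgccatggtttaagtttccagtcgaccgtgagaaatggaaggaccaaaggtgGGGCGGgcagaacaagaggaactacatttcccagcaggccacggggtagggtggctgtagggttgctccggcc
Polr1f: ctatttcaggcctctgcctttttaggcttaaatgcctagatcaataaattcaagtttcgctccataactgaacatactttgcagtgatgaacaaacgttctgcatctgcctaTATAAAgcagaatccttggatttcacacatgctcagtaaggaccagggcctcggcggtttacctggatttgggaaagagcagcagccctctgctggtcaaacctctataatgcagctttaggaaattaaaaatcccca
Polr1c: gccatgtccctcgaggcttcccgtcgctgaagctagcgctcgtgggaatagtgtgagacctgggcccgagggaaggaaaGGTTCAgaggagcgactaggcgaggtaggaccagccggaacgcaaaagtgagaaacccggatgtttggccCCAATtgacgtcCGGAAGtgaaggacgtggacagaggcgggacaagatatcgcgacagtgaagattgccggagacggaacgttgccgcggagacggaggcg
These windows lie at chr3:136786880-136787129, chr6:55780456-55780705 and chr9:22233068-22233317, all on the plus strand. In Polr1b the capitals are a GC box, GGGCGG, starting at position -73 from the gene's start. In Polr1f they are TATAAA, the letters of the TATA box, at position -138, a match of letters only. In Polr1c they are, in order, a GGTTCA element at -171, a CCAAT box at -101 and an ETS core, CGGAAG, at -89.

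Over both strands of the full window of 300 bases, which includes 50 after the start, the promoters of the 6 genes differed in composition. The GC box was in 3 of them (Polr1b, Polr1d and Polr1e) and in 33.1% of 33469 RefSeq promoters of the same length. The ETS core was in 4 (Polr1a, Polr1c, Polr1d and Polr1e) and in 16.6% of all. GGTTCA, a variant half-site of nuclear receptors, was in 3 (Polr1a, Polr1c and Polr1e) against 11.7%, and in Polr1a it shares 1 base with the ETS core before it. The half-site AGGTCA was in 0 of 6 windows and in 16.2% of all. Direct repeats of AGGTCA, or of GGTTCA, with a spacer of 3 bases, the kind bound by the vitamin D receptor, were also in 0 of 6, against 0.0239% and 0.0209%. The E-box CACGTG was in 0 of 6 against 6.42%. The CCAAT box was in 1, that of Polr1c, against 37.5%, and TATAAA in 1, that of Polr1f, against 14.2%. A match is a stretch of letters and not a measured binding site, and the motifs were chosen with the diet results known.

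The catalytic centre is formed by Polr1a, the largest subunit, and Polr1b, the second largest, and their transcripts did not follow the same order of diets. Polr1b ranged from 8.39 to 8.56 (median 8.45) in low-diet rats, from 8.45 to 8.60 (median 8.51) in control rats and from 8.49 to 8.70 (median 8.62) on the high diet. Of the 9 high-diet rats, 7 exceeded the highest low-diet value and 6 the highest control value, while rats 18 and 22 lay among the others. The groups thus overlapped, as they did between high and low for all but 1 of 8485 genes (0.0118%). Means of Polr1b were 8.47 ± 0.06, 8.51 ± 0.05 and 8.61 ± 0.07 (SD, n = 8, 9 and 9). The mean on the high diet was above low by 0.14 log2 (SE 0.029), a ratio of 1.10, and above control by 0.095 (SE 0.029), a ratio of 1.07. Low and control differed by -0.047 (SE 0.029), less than the SD of 0.058 among rats of a diet, and these 2 groups overlapped. Here and below the SD describes single rats, and the SE gives the precision of a difference of means. A difference of means below the SD is not thereby shown to be absent.

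Polr1a ranged from 6.70 to 6.87 (median 6.80) on low, from 6.70 to 6.84 (median 6.81) on control and from 6.53 to 6.83 (median 6.76) on high. The 3 groups overlapped almost fully, and the lowest value, that of high-diet rat 20, stood apart. Means were 6.80 ± 0.05, 6.79 ± 0.05 and 6.75 ± 0.09 (SD, n = 8, 9 and 9). High minus low was -0.051 (SE 0.033) and high minus control was -0.044 (SE 0.032), both smaller than the SD of 0.066 within diets. Without rat 20 these differences were -0.024 and -0.018.

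The stalk subunit gene Polr1f, also known as Twistnb, had its highest mean on the high diet too, but its lowest on control. It ranged from 7.18 to 7.45 (median 7.37) on low, from 7.26 to 7.36 (median 7.31) on control and from 7.25 to 7.60 (median 7.45) on high. Of the high-diet rats, 7 of 9 exceeded the highest control value and 4 of 9 the highest low-diet value, and rat 18 fell short of the lowest control value. The control rats were the closest to each other, with an SD of 0.04 against 0.09 on low and 0.11 on high. Means were 7.35 ± 0.09, 7.31 ± 0.04 and 7.45 ± 0.11 (SD, n = 8, 9 and 9). High minus control was +0.14 (SE 0.039), a ratio of 1.10, and high minus low was +0.11 (SE 0.040), a ratio of 1.08. Low minus control was +0.033 (SE 0.040), less than the SD of 0.084 within diets. For Polr1b and Polr1f alike, the difference between low and control was smaller than the SD among single rats of a diet. This does not show that the means were equal.

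**Figure D1:**
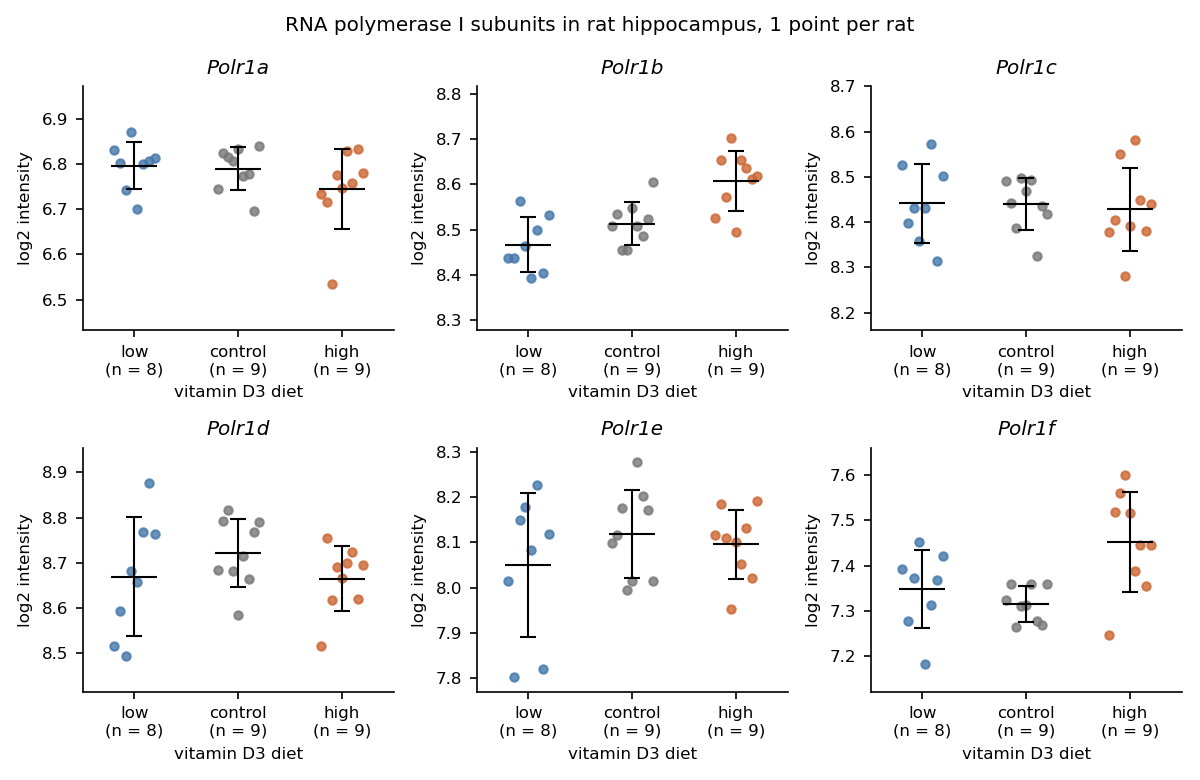
Log2 intensity (vertical axis) of each RNA polymerase I subunit gene on the low, control and high vitamin D3 diets, 1 point per rat, with the mean and SD in black; each panel spans the same range of log2 units. Polr1b and Polr1f have their highest means on the high diet (8.61 and 7.45), and the groups overlap in every panel.

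The platform subunit genes Polr1c and Polr1d, whose products also sit in RNA polymerase III, showed no such step. Polr1c had means of 8.44 ± 0.09, 8.44 ± 0.06 and 8.43 ± 0.09 (SD, n = 8, 9 and 9), and its rats ranged from 8.28 to 8.58 with both extremes on the high diet. Its differences were -0.014 (SE 0.038) for high minus low and -0.011 (SE 0.037) for high minus control, against an SD of 0.080. Polr1d had means of 8.67 ± 0.13, 8.72 ± 0.08 and 8.66 ± 0.07, with its lowest and highest rats (8.49 and 8.88) both on the low diet. Its differences were -0.0041 (SE 0.044) and -0.057 (SE 0.043), against an SD of 0.095. The sign of Polr1d for high minus low turned to +0.0029 after centring on array medians, as did that of Polr1c for high minus control, to +0.0017.

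Polr1e, a subunit of the heterodimer that aids initiation and elongation, varied most among rats. Its values ranged from 7.80 to 8.23 (median 8.10) on low, from 7.99 to 8.28 (median 8.12) on control and from 7.95 to 8.19 (median 8.11) on high. Low-diet rats 2 and 7, at 7.80 and 7.82, were the lowest of all 26. Means were 8.05 ± 0.16, 8.12 ± 0.10 and 8.10 ± 0.08 (SD, n = 8, 9 and 9), and the largest difference, low minus control, was -0.069 (SE 0.052), less than the SD of 0.114. Without rat 2 that difference was -0.034.

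Across the subunit genes, 3 of 6 had a higher mean on high than on low and 2 of 6 than on control, where 55.2% and 50.6% of all tested genes did. For low minus control it was 3 of 6, against 44.1%. Centring on array medians raised the number of all tested genes with a higher mean from 4682 to 5216 for high minus low and from 4292 to 5523 for high minus control. The median difference of the 6 was +0.021 for high minus low and -0.017 for high minus control, beside medians of +0.0053 and +0.00043 over all tested genes. Polr1b had the highest rank of the members for high minus low, at 85 from the top of 8485 genes, and Polr1f for high minus control, at 49. In limma's moderated test, 0 of the 5 tested members and 0 genes in all (0%) were called at an adjusted p under 0.17 in any diet contrast. At an unadjusted p under 0.05, 2 of 5 members, Polr1b and Polr1f, were among the genes past that level for high minus low (613 genes, 7.22%) and for high minus control (393 genes, 4.63%). For low minus control it was 0 of 5 (193 genes, 2.27%). At an adjusted p under 0.31, 2 genes (0.0236%) passed for high minus low, Polr1b being 1 of them. The test without moderation called 0 genes at 0.17 too, with 608, 400 and 201 genes at an unadjusted p under 0.05. Because the genes were chosen on these contrasts, nothing is read from the counts of members. The contrasts share arrays, so high minus low and high minus control are not separate evidence.

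**Figure D2:**
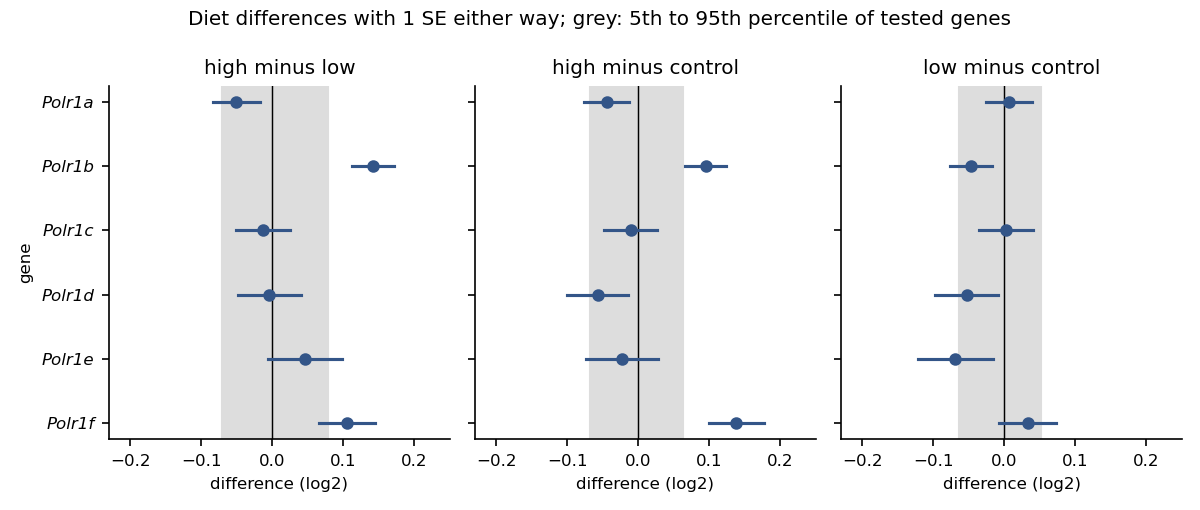
Difference between diets in log2 units (horizontal axis) for the 6 subunit genes, with 1 SE either way, and the 5th to 95th percentile of the differences of all tested genes in grey. For high minus low the grey band runs from -0.070 to 0.078, and Polr1b (0.14) and Polr1f (0.11) lie to its right.

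The means of some listed cell and region markers also differed between these groups of rats, though 0 of these markers were called. Of 12 listed markers of neighbouring cortex and subiculum, 7 were tested, and 5 of them had a higher mean on high than on low, among them Fezf2 (+0.18) and Slc17a6 (+0.52), while Fn1 (-0.25) was lower. Their mean level per rat lay between 9.27 and 9.44 on low, 9.28 and 9.46 on control and 9.27 and 9.57 on high, and their summed linear intensity between 9150 and 10125, 8872 and 10331, and 8813 and 11008. In limma 6 of these 7 markers (5 higher and 1 lower) were past an unadjusted p of 0.05 for high minus low, beside 7.22% of all tested genes. For high minus control 6 of the 7 had a higher mean. There 4 higher and 1 lower were past that level, beside 4.63% of all tested genes. In both contrasts 0 were called. The remaining 5 of these 12 markers were not analysed here. Of 20 vessel markers 13 were tested, and all 13 had a lower mean on high than on low and than on control. Of all tested genes, 55.2% and 50.6% had a higher mean in these contrasts. In limma 4 of the 13 vessel markers were past an unadjusted p of 0.05 in each contrast (7.22% and 4.63% of all tested genes). None of these markers was called. Their mean per rat lay between 8.39 and 8.53 on low, 8.43 and 8.54 on control and 8.37 and 8.46 on high, and their summed intensity between 6748 and 7601, 6845 and 7543, and 6615 and 7239. Of the 12 hippocampal neuron markers, 10 had a lower mean on high than on low and 10 than on control (8 after centring), with median differences of -0.029 and -0.024. Wfs1, a marker of CA1 pyramidal neurons, was the 1 of them past an unadjusted p of 0.05 for high minus low (-0.24, SE 0.11), 0 were past it for high minus control, and 0 were called. Their mean per rat lay between 11.58 and 11.71 on low, 11.45 and 11.68 on control and 11.40 and 11.67 on high, and their summed intensity between 49161 and 54525, 46886 and 53219, and 44805 and 52197. The differences of the 2 tested choroid plexus markers were -0.28 and +0.13 for high minus low. For high minus control they were -0.52 and +0.012, and 0 were called. Some of these markers were listed with earlier results of these arrays known. The part of tissue composition in the values of Polr1b and Polr1f was not tested.

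None of the tested genes in the lists of further RNA polymerase I subunits and of its factors was called in limma. Of 7 further subunits, 4 were tested: the shared subunits Polr2e, Polr2f and Polr2h and the zinc-binding subunit Polr1h. In each diet contrast 0 of 4 were past an unadjusted p of 0.05. For high minus low they differed by -0.039 (Polr2e), +0.029 (Polr2f), -0.024 (Polr2h) and +0.0048 (Polr1h). Of 22 genes of initiation, regulation and termination, 15 were tested, 11 with a higher and 4 with a lower mean on high than on low. Their median difference was +0.0092, beside +0.0053 over all tested genes, and 0 were called. Taf1d, a subunit of the promoter selectivity factor SL1, differed most, by -0.093 (SE 0.052) for high minus low and -0.11 (SE 0.050) for high minus control. Both lay below the 5th percentile of all tested genes (-0.070 and -0.068), and the latter was past an unadjusted p of 0.05. The nucleolar helicase gene Ddx21 differed by +0.033, Nolc1, a nucleolar phosphoprotein, by +0.028, and Smarca5, a chromatin remodeller, by +0.035, for high minus low.

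Of 53 listed genes of ribosomal RNA processing and the nucleolus, 42 were tested, and for high minus low 21 had a positive and 21 a negative difference. Their median was +0.00025. In limma 0 were called, with 2 of 42 (4.76%) past an unadjusted p of 0.05, beside 7.22% of all tested genes. The 2 were Rbm28, a nucleolar RNA-binding protein, at -0.11 (SE 0.042), and Noc4l, a factor of the small ribosomal subunit, at +0.078 (SE 0.035). Nat10, which acetylates ribosomal RNA, differed by +0.066 (SE 0.036), and Rrp1 by -0.073 (SE 0.041). For high minus control 20 had a positive and 22 a negative difference, and 0 were called. Past an unadjusted p of 0.05 were 3 of 42 (7.14%), beside 4.63% of all tested genes. Rbm28 differed there by -0.17 (SE 0.041), a larger difference than that of any RNA polymerase I subunit gene described here. The others were Mphosph10 (-0.12, SE 0.049) and Nol6 (+0.082, SE 0.033), both of the machinery that processes the precursor of small subunit ribosomal RNA and both named after their values were seen. After centring on array medians the split of this list for high minus low became 27 higher and 15 lower, with a median of +0.0072, where the median of all tested genes was +0.012.

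The sister polymerases gave a comparison with the same arrays. Of 8 genes of subunits of RNA polymerase II, 7 were tested, 5 with a higher mean on high than on low, and their median difference was +0.035. Polr2c differed by +0.082 (SE 0.042), Polr2d by +0.078 (SE 0.062), Polr2j by +0.060 (SE 0.050) and Polr2b, the counterpart of Polr1b, by +0.035 (SE 0.035). Of 22 genes of RNA polymerase III and its factors, 16 were tested, 7 higher and 9 lower, with a median of -0.0067 that became +0.00031 (8 higher and 8 lower) after centring. Brf1, a subunit of the initiation factor TFIIIB, differed by -0.054 (SE 0.027), Polr3d by +0.060 (SE 0.039), Gtf3c1, the largest subunit of TFIIIC, by -0.032 (SE 0.022) and Polr3e by -0.044 (SE 0.035). In both lists 0 genes were called in limma and 0 were past an unadjusted p of 0.05 for high minus low. For high minus control 0 were called in either list, and Brf1 (-0.079, SE 0.026) and Polr3e (-0.072, SE 0.034) were past that unadjusted level.

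**Figure D3:**
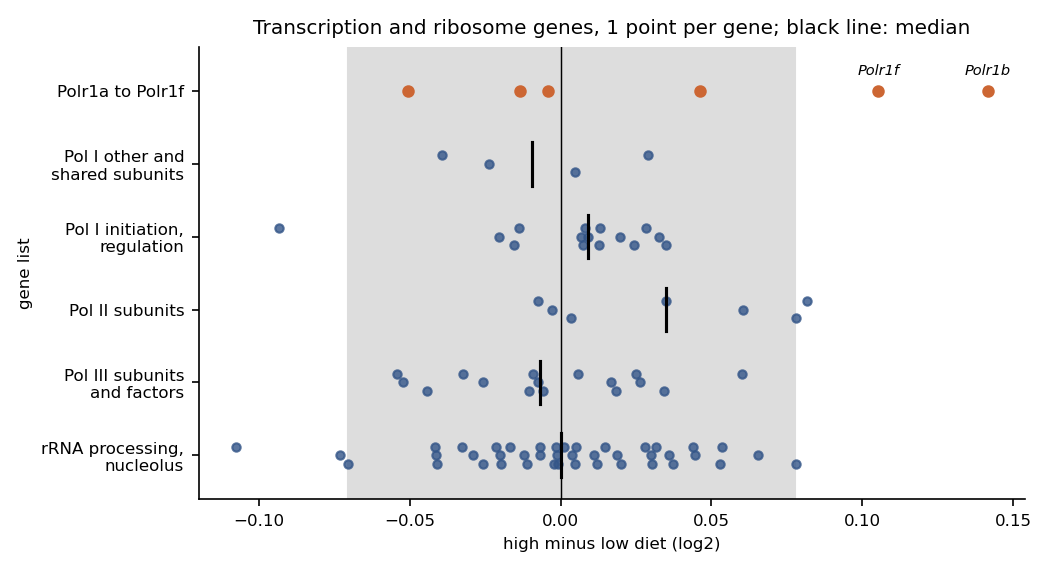
Difference between the high and low diets in log2 units (horizontal axis) for the 6 subunit genes in orange and for 5 lists of related genes in blue, 1 point per tested gene, with the median of each list in black and the 5th to 95th percentile of all tested genes in grey. Polr1b (0.14) and Polr1f (0.11) are the 2 points farthest to the right, and the list medians lie between -0.0094 and 0.035.

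Whether the subunit transcripts varied together from rat to rat was examined after removal of the diet means, which takes the diet contrasts out. Of 15 pairs, 10 had a positive correlation over 26 rats, with a median Pearson r of 0.098. This lay near the median of 0.041 over all pairs of tested genes, and 0 of 15 pairs exceeded the 95th percentile of those pairs, 0.460. The strongest was that of Polr1b and Polr1f, with r = 0.394 (two-sided permutation p = 0.079 from 100000 resamples within diets, adjusted p = 0.888 over 15 pairs) and Spearman's rho = 0.296 (permutation p = 0.184, adjusted p = 0.822). Without the 2 rats farthest from the median of Polr1b it was 0.545, and within the low, control and high diets it was 0.472, 0.575 and 0.319. The lowest r was that of Polr1a and Polr1e, at -0.214 (permutation p = 0.256, adjusted p = 0.888; rho = -0.320, permutation p = 0.114, adjusted p = 0.822; r = -0.277 without the 2 farthest rats). Polr1a and Polr1b, the catalytic pair, gave r = 0.226 (permutation p = 0.328, adjusted p = 0.888; rho = 0.305, permutation p = 0.150, adjusted p = 0.822) and 0.065 without the 2 farthest rats. The platform pair Polr1c and Polr1d gave r = -0.114 (permutation p = 0.613, adjusted p = 0.888; rho = -0.014, permutation p = 0.951, adjusted p = 0.951; r = -0.147 without the 2 farthest rats). No pair passed the adjusted threshold of 0.05, and 0 pairs had an unadjusted p under 0.05. These permutations took cage mates as independent.

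**Figure D4:**
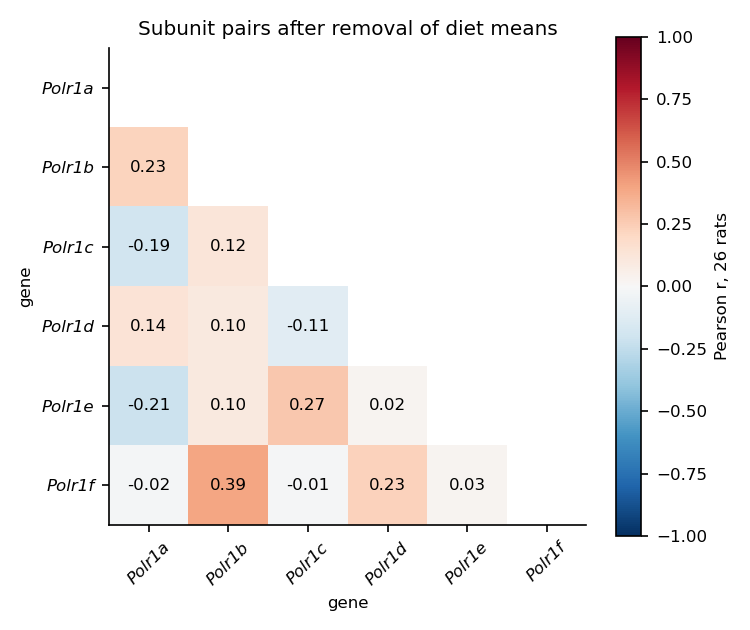
Pearson correlation between each pair of subunit genes over 26 rats after the mean of each diet was removed, on a colour scale from -1 to 1. The values run from -0.21 for Polr1a and Polr1e to 0.39 for Polr1b and Polr1f.

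The tested genes most like each member over the same 26 rats, by Pearson r after removal of the diet means, were mostly genes of other processes. For Polr1b they were Ncald, a neuronal calcium sensor (r = 0.677), Atmin, a cofactor of the DNA damage kinase ATM (0.674), and Fbh1, a DNA helicase (0.674). For Polr1f they were the adaptor gene Crkl (0.674), Arl6ip4 (0.667) and Msmo1, an enzyme of cholesterol synthesis (0.663). For Polr1a they were Car5b, a mitochondrial carbonic anhydrase (0.713), Rell2 (0.689) and Lsm1, of the mRNA decapping machinery (0.661). For Polr1c they were Sart3, a splicing factor (0.627), the proteasome gene Psma5 (0.613) and Slc25a26, the mitochondrial carrier of S-adenosylmethionine (0.609). For Polr1d they were Parp6 (0.858), the complex I gene Ndufa2 (0.756) and the tubulin gene Tubb2b (0.749). For Polr1e they were Fbxo28 (0.777), Trim46 (0.690), which organises axonal microtubules, and the protease gene Pcsk7 (0.679). All points share the 26 arrays and their normalization, and each r is the highest of many, so these are descriptions. For high minus low, Ncald, Atmin and Fbh1 differed by +0.074, +0.075 and +0.021. Crkl, Arl6ip4 and Msmo1 differed by +0.049, +0.034 and +0.062. The 12 genes most like the other members lay between -0.024 (Lsm1) and +0.13 (Ndufa2).

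The tail mark gave a contrast that played no part in the choice of the genes. With diet in the model, marked rats differed from unmarked rats (13 each) by -0.046 (SE 0.023) for Polr1b, -0.038 (SE 0.036) for Polr1d, -0.027 (SE 0.032) for Polr1f, -0.0062 (SE 0.043) for Polr1e and +0.0080 (SE 0.031) for Polr1c. For Polr1a, in the fit over all genes, the difference was -0.044 (SE 0.026). The sign of Polr1e turned with quantile normalization, to +0.0031. Adjusted p values in limma lay between 0.892 for Polr1b and 0.992 for Polr1e, so 0 of 5 members passed, with 0 of 8485 genes (0%) called in all. At an unadjusted p under 0.05 there were 0 of 5 members and 451 genes (5.32%), or 492 in the test without moderation. Within the 12 cages with both rats, with cage as a block, 0 genes were called, and Polr1b differed by -0.052 (SE 0.026, adjusted p = 0.827 in limma). Of the 12 cages with both rats, the marked rat was the lower one in 9 for Polr1b, 9 for Polr1d, 8 for Polr1a and Polr1f, 7 for Polr1e and 5 for Polr1c. Over all tested genes the median difference by tail mark was -0.012, and 33.8% of genes had a higher mean in marked rats.

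Cage mates were not more alike than other rats of their diet in Polr1b. The median absolute difference between cage mates was 0.096 over 12 cages, and that between rats of different cages on the same diet was 0.053 over 88 pairs. The same held in direction for Polr1f (0.091 and 0.072), Polr1c (0.101 and 0.074) and Polr1e (0.109 and 0.100), and the reverse for Polr1a (0.040 and 0.057) and Polr1d (0.076 and 0.100). These differences were not tested. Each complete cage paired a marked with an unmarked rat, while the other pairs also joined rats of the same mark. The part of the tail mark in these distances was not tested. On the high diet, the 4 complete cages each had a lower Polr1b value in the marked rat, a count picked after the values were seen.

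**Figure D5:**
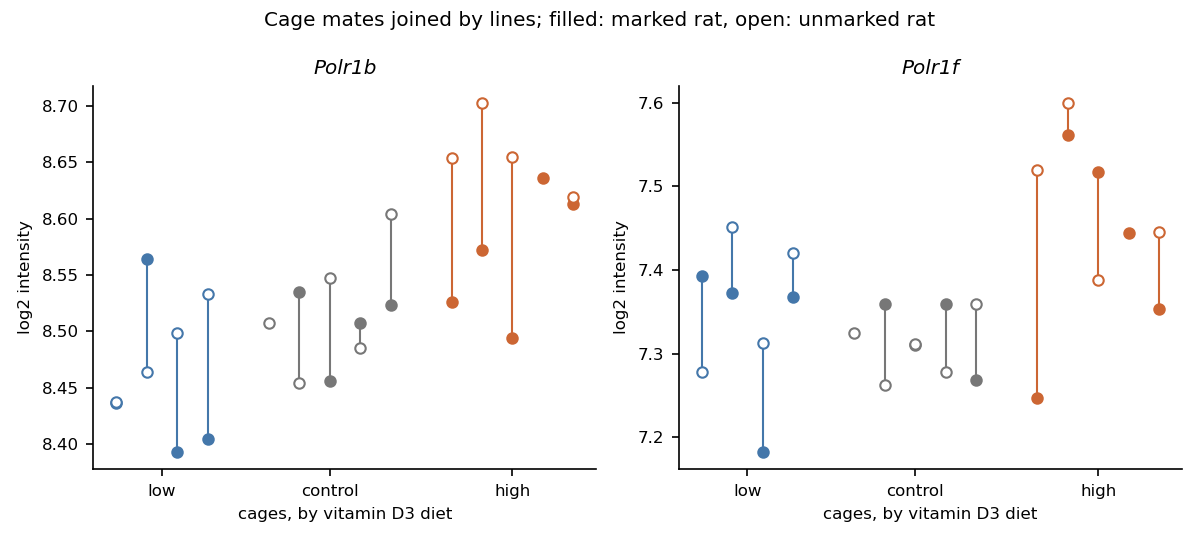
Log2 intensity (vertical axis) of Polr1b and Polr1f in each cage, ordered by diet, with cage mates joined by a line, marked rats as filled and unmarked rats as open points. For Polr1b the marked rat is the lower one in 9 of 12 complete cages.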

How the data were processed

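Hippocampal RNA of 26 rats was measured with 1 array each. Per the labels' protocols RNA was extracted with TRIzol. The authors deposited log2 probe set values, and the submitters' processing notes name Partek 6.6 and GCRMA without their roles. It covers 29214 probe sets with 0 missing values, and no scaling was added. Array medians lay between 6.92 and 6.96. Precision is limited by how many arrays there are (median SE 0.036 log2 for high minus low).

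GEO's platform annotation gave 15310 probe sets 1 symbol, 323 several and 13581 none. Among IDs of probe sets with 1 symbol, 15279 were in the RefSeq table of GRCr8, and 0 symbols were updated. Promoters matched for 6 of 6 members. The probe set of highest mean was kept per gene, and genes with a mean at or above 6.94 were tested.

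Models with diet as a factor over all arrays were fitted in limma 3.58.1 (R 4.3.3), with Benjamini-Hochberg adjustment over 8485 genes and calls under 0.17, the stricter rate of the series design. Tests were 2-sided. Pair correlations were permuted within diets in NumPy 2.4.6. Both procedures were tested on simulated data. Members and lists were chosen with earlier results of these data known. Named genes were the 6 members, the 4 tested genes of smallest unadjusted p for high minus low in each pathway list, and the 3 genes most like each member. Markers of hippocampal neurons (12 of 12 tested, median difference for high minus low -0.029), cortex (7 of 12), vessels (13 of 20), choroid plexus (2 of 10), astrocytes (9 of 10, -0.00098), oligodendrocytes (12 of 14, -0.00086) and microglia (9 of 12, -0.032) were listed too. Alternatives varied the filter, scaling, weights, blocks, covariates, outlying values, moderation, threshold and arrays.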

Additional observations from a re-analysis of the deposited data

Results flagged for a closer look

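Polr1a in high-diet rat 20 was 6.53 log2, and the next lowest rat of that diet was at 6.72, a gap of 0.610 of the range of the group. Without this rat the difference for high minus low was -0.024 in place of -0.051. It was 1 of 18 groups of rats checked (6 genes in 3 diets), and chance alone marks about 1 group in 20 by this measure.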

How the results depend on the processing

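No paired analysis was possible because the labels number the rats from 1 to 26 with no number shared by 2 diets and each cage held a single diet; this concerns the diet contrasts. The tail mark could be compared within cages (an alternative chosen after seeing the data, 24 rats), which gave 0 calls. There, 499 genes had an unadjusted p under 0.05, or 527 without moderation. With cage as a random block (consensus correlation 0.136) 0 genes were called in any diet contrast. Counts of genes called at an adjusted p under 0.17 were 0 in the fit as reported. For high minus low the count was 1, Polr1b, with quantile normalization, with centring on array medians and with the tail mark as a covariate, and 2, Polr1b among them, at an adjusted p under 0.31. Removing values more than 2 SD away from the mean of their diet narrows the spread within diets by construction, which favours calls. After that removal the count was 30 for high minus low with Polr1b among them, 15 for high minus control and 17 in the F-test over the 3 diets. Without the 3 arrays of lowest quality weight, an alternative chosen after seeing the data (low rat 7, control rat 17 and high rat 19), it was 5, 1 and 1 in that order, with no member among them. Leaving out 1 rat gave 0 to 3 calls in the F-test and for high minus low, 0 to 1 for high minus control, 0 for low minus control and 0 to 1 for the tail mark. Polr1b was called for high minus low without low rat 3, control rat 17 or high rat 22. Polr1b was chosen on this contrast, so its calls in these settings restate the choice and are no support for it.

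The difference of Polr1b for high minus low lay between 0.13 and 0.16 with 1 rat left out and between 0.13 and 0.15 over the other settings, and that of Polr1f for high minus control between 0.12 and 0.16 and between 0.14 and 0.15. No difference of a member moved by more than the SD within diets. Signs turned for Polr1c and Polr1d in some settings, as for Polr1d for high minus low with array quality weights (+0.033). Over the means of 14 cages, and in every other setting run for the pairs, 0 of 15 pairs were called. The stricter filter at 9.20 left no member to test. The removal of values over 2 SD dropped 3 member values, those of Polr1a in rat 20, Polr1c in rat 15 and Polr1d in rat 18.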
